A study of Mus musculus with 8 samples.

Results

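Collagen expression was followed in mouse spleen through the chains that build the collagens and the proteins that fold, modify, cut and bind them. A probe was included if the gene symbol in its annotation began with Col and a digit, or if it named Serpinh1, P4ha1, P4ha2, P4hb, a Plod or P3h family member, Pcolce, Bmp1 or Sparc. This rule used no measured value and found 72 of the 24613 probes, for 51 of 15967 genes: 37 collagen chains and 14 processing or binding proteins. The array held no probe for 7 further genes of the rule, namely Col6a2, Col6a3, Col6a5, Col12a1, Col20a1, Col22a1 and Col24a1.

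A total of 8 Illumina MouseRef-8 beadchips, which carry short oligonucleotide probes on beads, measured 4 kinds of RNA from C57BL/6 spleens with 2 arrays each. The kinds were fresh stroma of LTbR-/- mice, which lack the lymphotoxin beta receptor in all cells (LTbR-KO fresh stroma), cultured stroma of LTbR+/+ mice (WT cultured stroma), fresh stroma of LTbR+/+ mice (WT fresh stroma) and splenocytes of LTbR+/+ mice (WT splenocytes). All animals were 8 to 10 weeks old. Fresh stroma was the tissue that stayed on a mesh after the spleen had been rubbed over it, splenocytes were what the wash carried away, and cultured stroma was the adherent cells of whole spleen at weeks 3 to 4 and passages 2 to 3, so none of the samples was a sorted cell type. The sources disagree on whether the 2 arrays of a kind are biological or technical replicates, and p-values here measure only the spread between them, which may be technical.

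Collagens are secreted proteins whose chains wind into a triple helix of equal or different chains. Fibrillar collagens bear tension, basement membrane collagens form sheets under endothelium and around smooth muscle, and other families coat fibrils or tie matrices to each other. Before the helix forms, chains are hydroxylated on proline and lysine in the endoplasmic reticulum and held by chaperones, and after secretion the propeptides of the fibrillar types are cut away. In the spleen, collagen lies in the capsule, the trabeculae, the vessel walls and the reticular fibre network on which lymphocytes move.

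The promoter windows of the genes whose results recur most are shown first, from 250 bases before to 50 bases after the transcript start. Of the 51 genes, 40 had such a window in RefSeq (mouse assembly GRCm38.p6). Col4a1 and Col4a2 encode the chains of the commonest basement membrane collagen, whose trimer holds both. They lie head to head on chromosome 8 and are read in opposite directions, with transcript starts 21 bases apart in these windows (Col4a1 at chr8:11312777-11313076 on the minus strand, Col4a2 at chr8:11312555-11312854 on the plus strand). The windows have 78 bases in common, given in capitals, once from each strand:
Col4a1: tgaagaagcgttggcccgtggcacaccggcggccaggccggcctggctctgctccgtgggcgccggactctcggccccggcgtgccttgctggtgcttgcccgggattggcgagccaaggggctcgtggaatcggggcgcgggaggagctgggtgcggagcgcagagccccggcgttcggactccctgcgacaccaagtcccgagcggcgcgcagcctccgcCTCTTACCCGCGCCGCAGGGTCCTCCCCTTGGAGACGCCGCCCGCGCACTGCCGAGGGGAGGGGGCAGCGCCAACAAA
Col4a2: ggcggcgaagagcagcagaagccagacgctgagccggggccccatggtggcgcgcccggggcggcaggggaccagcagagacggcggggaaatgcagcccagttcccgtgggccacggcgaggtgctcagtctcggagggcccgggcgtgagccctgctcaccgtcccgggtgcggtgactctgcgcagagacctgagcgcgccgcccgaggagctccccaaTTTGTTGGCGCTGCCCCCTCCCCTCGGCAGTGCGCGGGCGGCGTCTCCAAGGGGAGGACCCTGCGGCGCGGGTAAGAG
P4ha2, a catalytic subunit of prolyl 4-hydroxylase, lies on chromosome 11 (window chr11:54100674-54100973, plus strand). Capitals mark the letters ACGTG on either strand, the core to which hypoxia-inducible factors bind. The P4ha2 window held them 2 times, and 19.6% of all 32851 promoter windows of this length held them at least once. A match of letters is a description and not a binding site.
P4ha2: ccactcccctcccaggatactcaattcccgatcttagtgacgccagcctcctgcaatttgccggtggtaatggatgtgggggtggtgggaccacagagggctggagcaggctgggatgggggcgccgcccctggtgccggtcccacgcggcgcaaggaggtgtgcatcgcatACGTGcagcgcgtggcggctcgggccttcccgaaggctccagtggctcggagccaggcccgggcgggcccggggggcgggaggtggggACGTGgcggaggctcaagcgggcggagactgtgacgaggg

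Detection was read from the deposited detection p-values, which compare each bead signal with the negative control beads of the same array. A probe was counted as detected in a sample type when this p was under 0.05 on both arrays. Of the 72 collagen probes, 35 (48.6%) were detected in LTbR-KO fresh stroma, 29 (40.3%) in WT cultured stroma, 37 (51.4%) in WT fresh stroma and 14 (19.4%) in WT splenocytes. Over all probes of the array the shares were 41.4% in LTbR-KO fresh stroma, 39.3% in WT cultured stroma, 43.2% in WT fresh stroma and 42.2% in WT splenocytes. Where detection on at least 1 array sufficed, the counts were 37 in LTbR-KO fresh stroma, 34 in WT cultured stroma, 39 in WT fresh stroma and 22 in WT splenocytes.

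By gene, 19 of 37 chains were detected in LTbR-KO fresh stroma, 12 in WT cultured stroma, 20 in WT fresh stroma and 8 in WT splenocytes. All 14 processing and binding genes were detected in both kinds of fresh stroma, 13 in WT cultured stroma and 6 in WT splenocytes. The exception in culture was P3h2, a prolyl 3-hydroxylase. Detected in all 4 sample types were 10 genes: the chains Col4a2, Col5a1, Col10a1 and Col28a1, the enzymes P4ha1, P4hb, Plod1, Plod3 and Bmp1, and the collagen chaperone Serpinh1. In no sample type were 16 chains detected, among them the chains Col2a1, Col9a1, Col9a2, Col11a1 and Col11a2, the kidney-type basement membrane chains Col4a3 and Col4a4, and the hemidesmosome collagen Col17a1. The others of these 16 were Col4a6, Col5a2, Col5a3, Col6a4, Col6a6, Col13a1, Col19a1 and Col26a1. Col5a2, the usual partner of Col5a1, was undetected everywhere on its single probe, which is a statement on that probe and not on the transcript. In all, 31 of the 72 probes were detected on no array.

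**Figure D1:**
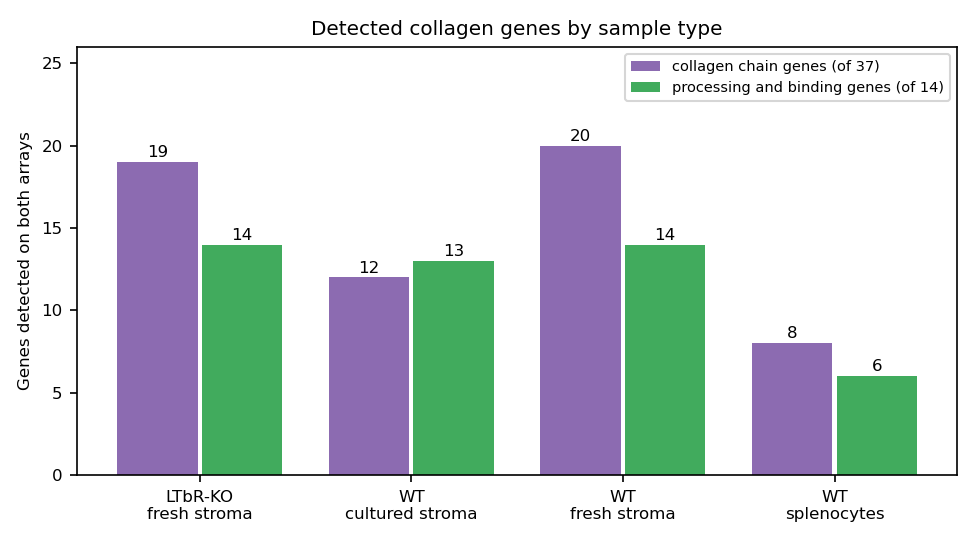
Number of collagen chain genes (of 37) and processing or binding genes (of 14) detected on both arrays of each of the 4 sample types (detection p under 0.05). Fresh stroma of both genotypes held 19 and 20 chains, against 8 in WT splenocytes, and WT cultured stroma held 12 chains with 13 processing genes.

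The 39 collagen probes detected in at least 1 sample type, for 35 genes, were corrected for background and normalized by quantiles to log2 signals together with all 12389 probes that met this rule, and differences were called at an adjusted p under 0.05 by limma over all of them. A gene with several probes is given by its brightest. All levels below are normalized log2 signals, listed as replicate 1 and replicate 2, and levels of different probes are not compared. Where neither array of a sample type detected a probe, the fold is a lower bound, taken against the dimmest detected signal of those arrays or the probe's own signal, whichever was higher. Facts of the whole series bear on all results: median bead signals were 55.9 to 66.6, between 9900 and 11283 probes were detected per array, and the SD of the log2 difference between replicate arrays was 0.23 in WT splenocytes to 0.33 in LTbR-KO fresh stroma. For the 39 collagen probes that SD was 0.41 in LTbR-KO fresh stroma, 0.25 in WT cultured stroma, 0.24 in WT fresh stroma and 0.15 in WT splenocytes. Ltbr itself gave 6.82 and 7.18 in LTbR-KO fresh stroma and 6.44 and 6.80 in WT fresh stroma (adjusted p = 0.257), and since the place of its probe relative to the deletion is not known here, these levels check no genotype.

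**Figure D2:**
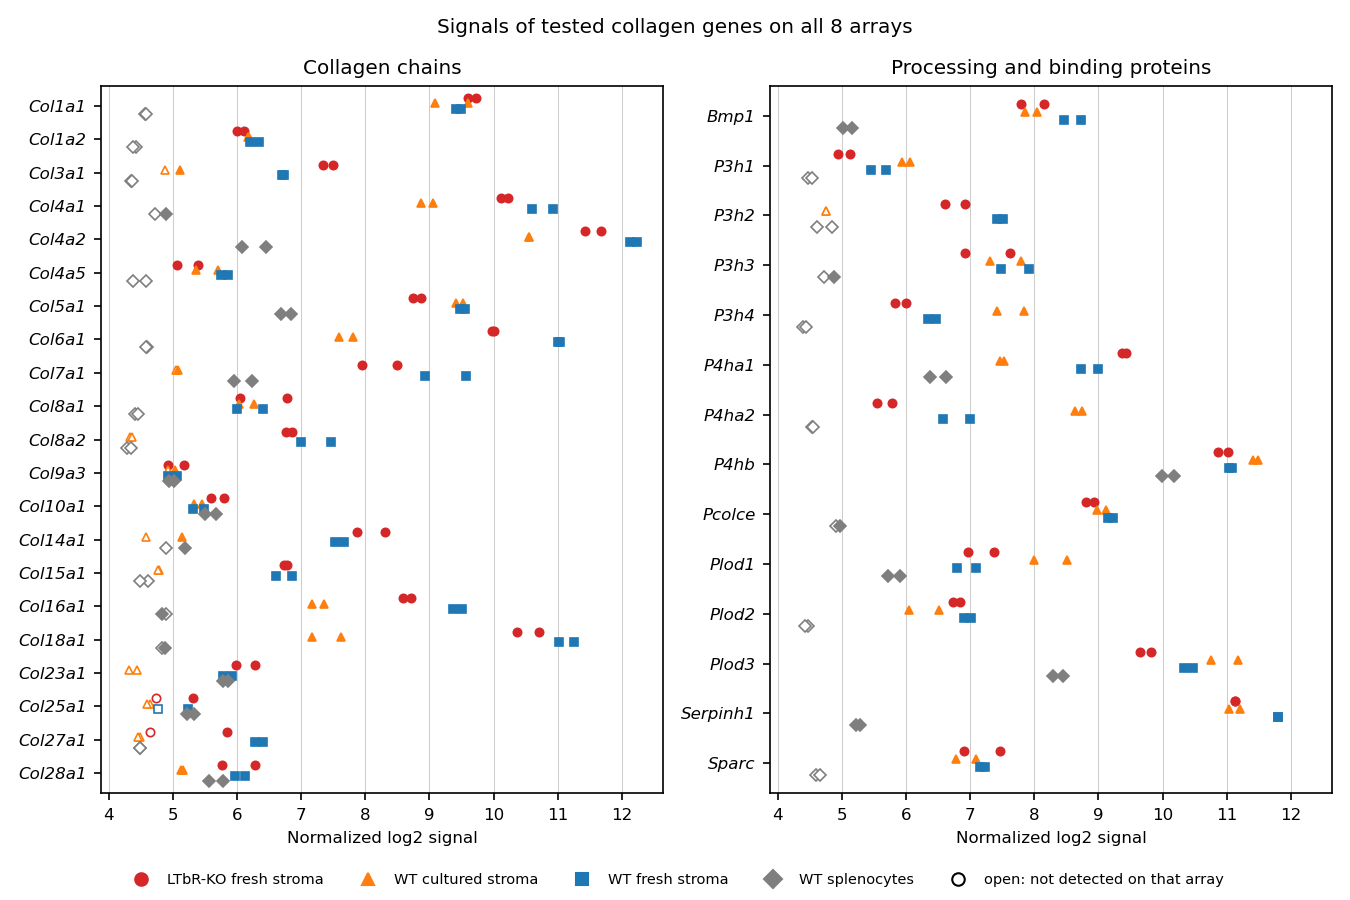
Normalized log2 signal (x axis) of the 35 tested collagen genes (rows, brightest probe) on each of the 8 arrays, with chains on the left in order of number and processing or binding proteins on the right in alphabetical order. Filled symbols were detected on that array and open ones were not, and the rows of Col7a1, Col18a1 and Col6a1 show WT cultured stroma far left of WT fresh stroma.

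WT fresh stroma against WT splenocytes shows how strongly each gene marks the stromal fraction. Of the 39 tested probes, 32 were higher in WT fresh stroma, where 24.2% of all tested probes were, and 0 were lower, where 31.6% of all tested probes were. Their median log2 difference was 2.36, beside -0.09 over all tested probes. Of the 35 genes, 21 entered the test through stroma without being detected on both splenocyte arrays, so their direction was set by the detection rule. These were the chains Col1a1, Col1a2, Col3a1, Col4a1, Col4a5, Col6a1, Col8a1, Col8a2, Col14a1, Col15a1, Col16a1, Col18a1 and Col27a1. They also included P3h1, P3h2, P3h3, P3h4, P4ha2, Pcolce, Plod2 and Sparc. Among the 13 genes detected in both, 9 were higher and 0 lower, and 20.5% of the 9303 probes detected in both were higher. The sums of normalized marker signals fit the labels only in part: fibroblast and reticular markers were at 3315 to 3998 in WT fresh stroma and 212 to 242 in WT splenocytes, while B cell markers were at 4814 to 5669 in WT fresh stroma and 13737 to 13975 in WT splenocytes, so lymphocyte transcripts were present in the stromal fraction as well. Since these are bulk samples, fewer cells of a type and less RNA per cell cannot be told apart, here and in all comparisons.

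The chaperone Serpinh1, also called HSP47, which binds folded procollagen in the endoplasmic reticulum, gave 11.79 and 11.80 in WT fresh stroma, against 5.22 and 5.29 in WT splenocytes. The groups lay far apart, with a log2 difference of 6.55 ± 0.14 (SE, adjusted p = 5.62e-10). Col6a1, a chain of the beaded filament collagen found around cells, gave 11.03 and 10.999 in WT fresh stroma and 4.60 and 4.58 in WT splenocytes, where it was not detected, and was at least 70.9-fold higher in stroma. Col18a1, the precursor of endostatin in vessel basement membranes, gave 11.25 and 11.02 in WT fresh stroma and 4.84 and 4.89 in WT splenocytes (log2 difference 6.27 ± 0.19). Col4a1 gave 10.92 and 10.60 in WT fresh stroma against 4.72 and 4.90 in WT splenocytes (5.95 ± 0.16), and Col4a2 gave 12.12 and 12.24 against 6.45 and 6.08 (5.91 ± 0.17). These were the 5 largest differences among the genes, and in each the groups were well separated. For Col6a1, Col18a1 and Col4a1 the direction was set by the detection rule.

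The fibrillar and fibre-coating chains were higher in WT fresh stroma by smaller amounts. Col1a1, the main chain of tendon and skin collagen, gave 9.42 and 9.49 in WT fresh stroma and 4.56 and 4.58 in WT splenocytes, and was at least 24.02-fold higher in stroma. Col1a2 gave 6.35 and 6.20 in WT fresh stroma and 4.43 and 4.38 in WT splenocytes (at least 2.65-fold), and Col3a1 gave 6.70 and 6.73 against 4.35 and 4.37 (at least 3.59-fold). None of these 3 chains was detected on a splenocyte array. Col5a1 was detected there, at 6.84 and 6.68, against 9.55 and 9.47 in WT fresh stroma, where it was thus 6.72-fold higher. Col14a1 gave 7.67 and 7.53 in WT fresh stroma and 4.89 and 5.196 in WT splenocytes, of which 1 array detected it (5.90-fold higher in stroma). Col15a1 gave 6.60 and 6.86 in WT fresh stroma and 4.61 and 4.50 in WT splenocytes, not detected (at least 3.64-fold).

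All 14 processing and binding genes were higher, but the detection rule left the direction open only for the 6 detected on both splenocyte arrays. The smallest of the 14 differences was 0.97 ± 0.14 for P4hb, which is also protein disulfide isomerase and serves many secreted proteins. P4hb gave 11.03 and 11.09 in WT fresh stroma and 10.00 and 10.18 in WT splenocytes. P4ha1 was at 8.98 and 8.73 in WT fresh stroma and 6.63 and 6.37 in WT splenocytes (5.12-fold higher in stroma), and P4ha2 at 6.58 and 6.99 against 4.54 and 4.55, not detected (at least 3.78-fold). Thus of the 4-hydroxylase subunits P4ha2 was the one below detection in splenocytes. Of the lysyl hydroxylases, Plod1 was at 7.10 and 6.79 in WT fresh stroma and 5.91 and 5.73 in WT splenocytes (2.18-fold), and Plod3 at 10.48 and 10.34 against 8.29 and 8.44 (4.13-fold). Plod2 was at 6.90 and 7.02 in WT fresh stroma and undetected in WT splenocytes, at 4.47 and 4.43 (at least 4.26-fold). The proteins that act outside the cell were also low in splenocytes. Bmp1 was at 8.73 and 8.46 in WT fresh stroma and 5.02 and 5.16 in WT splenocytes (11.4-fold). A second Bmp1 probe was 7.10-fold higher in stroma, while the remaining one, near background at 4.84 and 4.83 in WT fresh stroma, was not called (0.11 ± 0.14, adjusted p = 0.573). Pcolce was at 9.22 and 9.15 against 4.91 and 4.98 (18.9-fold), and Sparc at 7.16 and 7.23 against 4.59 and 4.65, not detected (at least 5.02-fold).

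Not called between WT fresh stroma and WT splenocytes were 5 chains: Col9a3 (difference 0.01), Col10a1 (-0.18), Col23a1 (0.03), Col25a1 (-0.27) and Col28a1 (0.38). Col23a1, a transmembrane collagen, was detected on all of these arrays, at 5.92 and 5.79 in WT fresh stroma and 5.86 and 5.79 in WT splenocytes. Col25a1, another transmembrane collagen, was detected on both arrays of WT splenocytes only.

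LTbR-KO against WT fresh stroma asked which collagen transcripts differ in a spleen stroma that develops without lymphotoxin beta receptor. Of 39 tested collagen probes, 14 were lower in LTbR-KO fresh stroma, where 7.18% of all tested probes were, and 2 were higher, where 5.31% were. By gene, 13 were lower, 2 higher and 20 not called, with a median log2 difference of -0.41 beside 0.02 over all tested probes. Among the 33 genes detected on both arrays of both genotypes, 12 were lower and 2 higher, and of all probes so detected 7.71% were lower and 6.16% higher. Of the chains 7 were lower and 1 higher, and of the processing and binding proteins 6 were lower and 1 higher.

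These counts changed when single arrays were left out, also arrays outside the compared groups. Each omission also takes away from the 4 residual degrees of freedom, so a lost call need not mean that the difference rested on that array. Without WT fresh stroma replicate 1, 3 probes were lower and 0 higher. The lower count was 6 without LTbR-KO fresh stroma replicate 2, 7 without WT fresh stroma replicate 2, and 9 without any 1 of the 4 arrays of WT cultured stroma and WT splenocytes. It was 5 when the compared groups were fitted alone. The median of the collagen probes stayed between -0.43 and -0.29 under these omissions. Among the called genes given below with all their arrays, Col6a1 and P4ha2 kept their calls under all 16 alternatives.

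Beside these falls, marker genes of other cell types differed between the genotypes. The summed normalized signal of 5 B cell markers was 11181 to 12462 in LTbR-KO fresh stroma and 4814 to 5669 in WT fresh stroma, and that of 5 T cell markers 3775 to 4579 against 1633 to 1857. The 4 markers of pancreatic acinar cells, a tissue that adjoins the spleen, summed to 9428 to 9655 in LTbR-KO fresh stroma and 2293 to 2562 in WT fresh stroma. Of 6 endothelial markers, 5 were detected on all these arrays, and they summed to 4718 to 5345 in LTbR-KO fresh stroma and 7280 to 7296 in WT fresh stroma. Of these, Cdh5, Plvap and Emcn were called lower, while Pecam1 (-0.38) and Cldn5 (-0.23) were not called. Of 5 smooth muscle and pericyte markers, 4 were detected, and the sums were 15028 to 16366 against 22854 to 26301. Myh11 and Des were called lower, while Acta2 (-0.61), by far the brightest of the list, and Tagln (-0.49) were not called. The 6 fibroblast and reticular markers summed to 4306 to 4383 in LTbR-KO fresh stroma and 3315 to 3998 in WT fresh stroma, but they did not move as 1 list: Dpt was called higher (0.93), Pdpn lower (-1.01) and 4 were not called, among them Dcn (0.23) and Lum, which was undetected in both. The defining endothelial receptor Kdr, the smooth muscle protein Cnn1 and the B cell factor Pax5 were not detected in any sample type on these probes. The part of these cell types in the collagen differences was not tested.

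The fibrillar chains did not move as 1 group in LTbR-KO fresh stroma. Col3a1, the chain of reticular fibres, gave 7.50 and 7.34 in LTbR-KO fresh stroma, against 6.70 and 6.73 in WT fresh stroma. It was the chain that rose, 1.63-fold (log2 difference 0.71 ± 0.15, adjusted p = 0.0107), and this call was lost without WT fresh stroma replicate 1 and with the authors' values (adjusted p from 0.00617 to 0.065 over 16 alternatives). Col1a1 gave 9.72 and 9.60 in LTbR-KO fresh stroma and 9.42 and 9.49 in WT fresh stroma, and its partner Col1a2 gave 6.11 and 6.01 against 6.35 and 6.20. Neither was called, and their differences had opposite signs (0.21 ± 0.18 and -0.21 ± 0.14). Col5a1, a chain of the minor collagen that starts fibrils, gave 8.87 and 8.75 in LTbR-KO fresh stroma and 9.55 and 9.47 in WT fresh stroma, with no overlap, and fell 1.63-fold (adjusted p = 0.00992). That call was lost without LTbR-KO fresh stroma replicate 2 or WT fresh stroma replicate 1 (adjusted p up to 0.0686). Col27a1 had 5.84 and 4.64 in LTbR-KO fresh stroma, where the second array did not detect it, against 6.29 and 6.41 in WT fresh stroma. The gene passed the detection filter only through WT fresh stroma, so its direction was set by the detection rule. Its fall of 1.11 ± 0.30 on the log2 scale (adjusted p = 0.0358) rests on a pair of LTbR-KO arrays that differ by more than the groups do, and the call held in 5 of 16 alternatives: of the single arrays, only LTbR-KO fresh stroma replicate 1 could be left out without losing it (adjusted p up to 0.171).

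Of 6 basement membrane chains 3 were tested, and Col4a1 and Col4a2 were called lower. Col4a1 gave 10.22 and 10.11 in LTbR-KO fresh stroma and 10.92 and 10.60 in WT fresh stroma. Col4a2 gave 11.42 and 11.68 in LTbR-KO fresh stroma and 12.12 and 12.24 in WT fresh stroma. For both genes each LTbR-KO array lay below each WT array, and the falls were 1.51-fold (adjusted p = 0.0367) and 1.55-fold (adjusted p = 0.0327). Both stand close to the threshold. Col4a1 was called in 6 of 16 alternatives and lost its call without any single array other than WT fresh stroma replicate 2 (adjusted p up to 0.232). Col4a2 was called in 9 of 16 and lost its call without LTbR-KO fresh stroma replicate 1, either WT fresh stroma array or WT cultured stroma replicate 1 (adjusted p up to 0.132). Col4a5, a chain of a second basement membrane network, gave 5.07 and 5.39 against 5.86 and 5.75 and was not called (-0.57 ± 0.17, adjusted p = 0.0583).

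Among the other chains Col6a1 changed most clearly. It gave 10.00 and 9.97 in LTbR-KO fresh stroma, against 11.03 and 10.999 in WT fresh stroma, a 2.04-fold fall (log2 difference -1.03 ± 0.14, adjusted p = 0.00115) in which the replicates nearly coincided. A second detected Col6a1 probe gave 8.90 and 10.03 in LTbR-KO fresh stroma and 10.11 and 9.91 in WT fresh stroma, so its groups overlapped and it was not called (-0.55 ± 0.29, adjusted p = 0.261). Col7a1, the chain of anchoring fibrils, gave 8.49 and 7.94 in LTbR-KO fresh stroma and 8.92 and 9.57 in WT fresh stroma and fell 2.05-fold (adjusted p = 0.018). The call held in 11 of 16 alternatives. It was lost with the authors' normalized values (adjusted p = 0.0609), with no detection filter and with the compared groups alone. It was also lost without replicate 2 of either genotype. With 1 array left out, its log2 difference ranged from -1.37 to -0.71. Col16a1, a fibril-associated chain, gave 8.71 and 8.59 against 9.50 and 9.36 and fell 1.72-fold (adjusted p = 0.00622), and of 16 alternatives this call was lost only without WT fresh stroma replicate 1 (adjusted p from 0.00224 to 0.0526).

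The chains of vessel and fibre coats were mixed. Col18a1 gave 10.71 and 10.36 in LTbR-KO fresh stroma and 11.25 and 11.02 in WT fresh stroma (-0.60 ± 0.19, adjusted p = 0.0652). Its relative Col15a1 gave 6.78 and 6.73 in LTbR-KO fresh stroma, inside the 6.60 and 6.86 of WT fresh stroma. Col14a1, which coats fibrils, gave 7.86 and 8.31 in LTbR-KO fresh stroma and 7.67 and 7.53 in WT fresh stroma (0.48 ± 0.22, adjusted p = 0.191). Of these 3 genes none was called. The other chains that were tested and not called were Col8a1, Col8a2, Col9a3, Col10a1, Col23a1, Col25a1 and Col28a1, with differences from -0.41 for Col8a2 to 0.29 for Col10a1.

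The prolyl 4-hydroxylase subunits were called in opposite directions. P4ha2 gave 5.55 and 5.79 in LTbR-KO fresh stroma and 6.58 and 6.99 in WT fresh stroma, and fell 2.16-fold (log2 difference -1.11 ± 0.17, adjusted p = 0.0023). P4ha1, the other main catalytic subunit of the same enzyme, gave 9.37 and 9.43 in LTbR-KO fresh stroma and 8.98 and 8.73 in WT fresh stroma. It was called higher by 1.46-fold (adjusted p = 0.0455), but only in 3 of 16 alternatives, and leaving out any single array ended the call (adjusted p up to 0.216). P4hb, their shared partner subunit, gave 10.86 and 11.02 against 11.03 and 11.09 (-0.12 ± 0.14, adjusted p = 0.661).

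Of the lysyl hydroxylases, Plod3 gave 9.81 and 9.64 in LTbR-KO fresh stroma and 10.48 and 10.34 in WT fresh stroma, and fell 1.60-fold (adjusted p = 0.0271). The call held in 10 of 16 alternatives. It was lost with the authors' normalized values (adjusted p = 0.0701), with no detection filter and with the compared groups alone. It was also lost without LTbR-KO fresh stroma replicate 2 or either WT fresh stroma array. With 1 array left out, its log2 difference ranged from -0.77 to -0.60. Plod3 also adds sugars to collagen lysines. Plod1 gave 6.97 and 7.37 in LTbR-KO fresh stroma and 7.10 and 6.79 in WT fresh stroma, and Plod2, which hydroxylates the ends of the chains for cross-linking, gave 6.74 and 6.84 against 6.90 and 7.02. Neither was called. Of the prolyl 3-hydroxylase family, P3h1 (-0.55 ± 0.15, adjusted p = 0.0379) and P3h2 (-0.70 ± 0.16, adjusted p = 0.0172) fell, whereas P3h3 (-0.43 ± 0.25) and P3h4 (-0.49 ± 0.17) were not called. The call of P3h1 held in 6 of 16 alternatives, and of the single arrays only LTbR-KO fresh stroma replicate 1 or WT cultured stroma replicate 1 could be left out without losing it (adjusted p up to 0.269). That of P3h2 held in 12 of 16 and was lost without LTbR-KO fresh stroma replicate 2 or WT fresh stroma replicate 1 (adjusted p up to 0.101).

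Serpinh1 gave 11.13 and 11.12 in LTbR-KO fresh stroma and 11.79 and 11.80 in WT fresh stroma. Replicates differed by far less than the groups, and the fall was 1.59-fold (log2 difference -0.67 ± 0.14, adjusted p = 0.0105). The call was lost in 1 of 16 alternatives, without WT fresh stroma replicate 1 (adjusted p from 0.00272 to 0.0612). Bmp1, the protease that removes the C-propeptides of fibrillar procollagens, gave 8.15 and 7.79 in LTbR-KO fresh stroma and 8.73 and 8.46 in WT fresh stroma (1.54-fold lower, adjusted p = 0.041), a call that held in 5 of 16 alternatives and was lost without any single array other than LTbR-KO fresh stroma replicate 1 (adjusted p up to 0.228). A second Bmp1 probe was lower as well (-0.51 ± 0.14, adjusted p = 0.0384), while the remaining one, detected only in WT stroma, fresh and cultured, was not called. Pcolce, which enhances that cleavage, gave 8.94 and 8.80 in LTbR-KO fresh stroma and 9.22 and 9.15 in WT fresh stroma (-0.31 ± 0.14, adjusted p = 0.182). Sparc, a matricellular protein that binds collagen, gave 6.90 and 7.47 in LTbR-KO fresh stroma, on both sides of the 7.16 and 7.23 of WT fresh stroma.

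**Figure D3:**
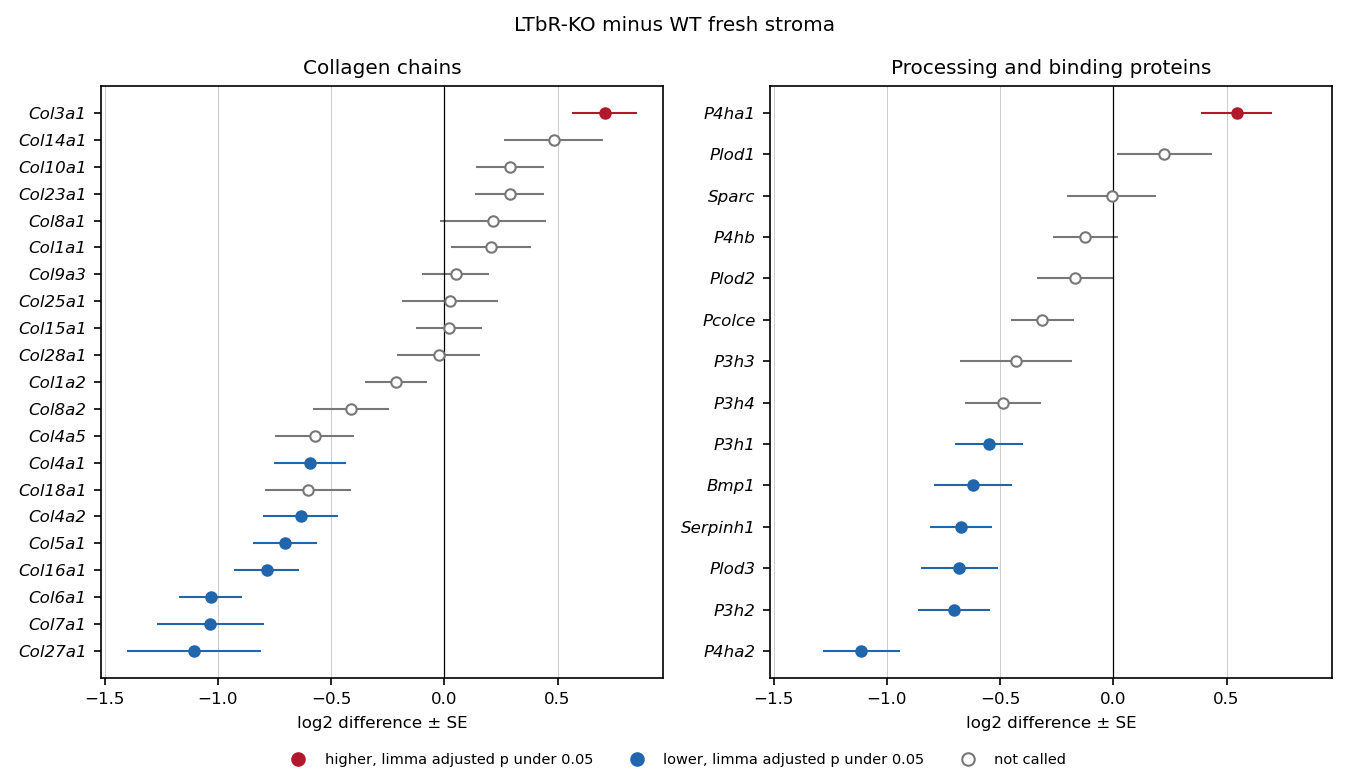
Log2 difference of LTbR-KO minus WT fresh stroma (x axis, ± SE from limma, 2 arrays per group) for 21 chains (left) and 14 processing or binding proteins (right), ordered by size. Filled symbols had an adjusted p under 0.05 over all tested probes: 13 genes were lower, led by P4ha2, Col27a1, Col7a1 and Col6a1, and Col3a1 and P4ha1 were higher. Col27a1 passed the detection filter only through WT fresh stroma, which set its direction.

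A list of 54 other genes of collagen handling was set beside these: further chaperones, export factors, propeptide proteases, cross-linking enzymes, collagen-degrading enzymes, receptors and matrix partners. Of the 31 tested, 6 were lower in LTbR-KO fresh stroma and 0 higher, with a median of -0.25, where 7.18% of all tested probes were lower and 5.31% higher, with a median of 0.02. The 6 were the cross-linking enzyme Loxl1 (-0.76 ± 0.14), the collagenolytic proteases Mmp2 (-0.64 ± 0.14) and Mmp14 (-0.87 ± 0.15), the collagen receptors Itga11 (-0.83 ± 0.13) and Ddr2 (-1.18 ± 0.25), and Hspg2, the basement membrane proteoglycan perlecan (-1.02 ± 0.19). Ddr2, the largest of these falls, was detected on 1 array of LTbR-KO fresh stroma. Its mean there was 4.87, and the dimmest detected signals of these arrays were 4.82 and 4.93. None of the 6 tested chaperones and modifiers and none of the 4 tested export factors was called. The calls of this wider list were not examined under the alternatives.

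WT cultured against WT fresh stroma asked what the collagen transcripts of adherent spleen cells were after weeks without the organ. Of 39 tested collagen probes, 20 were lower in WT cultured stroma, where 30.9% of all tested probes were, and 7 were higher, where 33.8% were. Of 21 tested chains, 13 were lower and 0 higher, with a median of -1.63, and all 21 had a negative difference (16 without WT cultured stroma replicate 1), although Col1a1 and Col5a1 turned positive when arrays were scaled to the 75th percentile and Col5a1 was then called higher (0.49, adjusted p from 0.0213 to 0.987 over 16 alternatives). Of 14 processing and binding proteins, 5 were lower, 6 higher and 3 not called, with a median of -0.14. Leaving out 1 array left 13 or 14 chains lower, whereas the number of probes called higher was 4, and not 7, without WT fresh stroma replicate 2 or without WT cultured stroma replicate 1.

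The cultures also differed in their cells. Of 6 endothelial markers, 0 and 1 were detected on the WT cultured arrays, with sums of 151 to 160 in WT cultured stroma against 7280 to 7296 in WT fresh stroma. Erythroid markers summed to 90.5 to 92.8 in WT cultured stroma, with 0 of 4 detected, and to 49553 to 49710 in WT fresh stroma. Macrophage markers summed to 30792 to 31378 in WT cultured stroma and 3363 to 3611 in WT fresh stroma. Fibroblast and reticular markers summed to 8834 to 9573 in WT cultured stroma and 3315 to 3998 in WT fresh stroma. Yet 3 were higher and 3 lower: Pdpn (4.89), Dcn (0.83) and Lum (at least 7.69-fold) rose, while Pdgfrb (-1.25), Dpt (-1.19) and Pdgfra (-0.74) fell. Lum passed the detection filter only through WT cultured stroma, so its direction was set by the detection rule. Smooth muscle markers were at 10310 to 10395 in WT cultured stroma and 22854 to 26301 in WT fresh stroma. The part of these cells in the collagen differences was not tested. Of the 35 tested genes, 9 were detected on both arrays of WT fresh stroma and not on both of WT cultured stroma, and 8 of these were called lower. Of the 9, Col3a1, Col8a2, Col14a1, Col15a1, Col27a1 and P3h2 passed the filter only through fresh stroma, so their direction was set by the detection rule, whereas Col7a1, Col9a3 and Col23a1 were detected in WT splenocytes as well. Of the 25 detected in both, 10 were lower and 6 higher, and of all 8622 probes so detected 27.2% were lower and 36.7% higher.

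Of the fibrillar chains Col3a1 and Col27a1 fell in culture, while Col1a1, Col1a2 and Col5a1 were not called. Col1a1 gave 9.09 and 9.60 in WT cultured stroma, on both sides of the 9.42 and 9.49 of WT fresh stroma. Col1a2 gave 6.17 and 6.19 in WT cultured stroma and 6.35 and 6.20 in WT fresh stroma, and Col5a1 gave 9.41 and 9.52 against 9.55 and 9.47. The 95% intervals of these differences were -0.50 to 0.28 for Col1a1, -0.40 to 0.21 for Col1a2 and -0.36 to 0.27 for Col5a1. Col3a1 gave 4.88 and 5.11 in WT cultured stroma, detected on 1 array, against 6.70 and 6.73 in WT fresh stroma, a 3.30-fold fall (log2 difference -1.72 ± 0.15, adjusted p = 2.26e-06). Col27a1 was not detected in WT cultured stroma and was at least 2.58-fold lower there.

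The basement membrane pair fell in culture. Col4a1 gave 8.88 and 9.06 in WT cultured stroma and 10.92 and 10.60 in WT fresh stroma (3.47-fold lower, adjusted p = 3.53e-06). Col4a2 gave 10.54 and 10.55 in WT cultured stroma and 12.12 and 12.24 in WT fresh stroma (3.10-fold lower, adjusted p = 9.46e-06). Both remained detected on all cultured arrays. Scaling to the 75th percentile kept both calls but gave smaller log2 differences: -1.19 beside -1.79 for Col4a1, and -0.76 beside -1.63 for Col4a2. The size of these falls thus depends on the normalization. Col4a5 gave 5.36 and 5.70 against 5.86 and 5.75 and was not called (adjusted p = 0.188).

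The largest falls were outside the fibrillar and basement membrane groups. Col7a1 gave 5.05 and 5.08 in WT cultured stroma, detected on 1 array, against 8.92 and 9.57 in WT fresh stroma, a fall of 18.2-fold (adjusted p = 1.2e-07). Its cultured level also lay below the 6.23 and 5.96 of WT splenocytes. Col18a1 gave 7.62 and 7.17 in WT cultured stroma and 11.25 and 11.02 in WT fresh stroma, a 13.4-fold fall (adjusted p = 5.6e-08). Col6a1 gave 7.60 and 7.81 in WT cultured stroma and 11.03 and 10.999 in WT fresh stroma, a 9.91-fold fall (adjusted p = 1.49e-08), and its second detected probe fell 6.20-fold.

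Col8a2, a chain of the short-chain network of vessel and corneal membranes, gave 4.34 and 4.36 in WT cultured stroma, not detected, against 6.99 and 7.46 in WT fresh stroma, and was at least 4.74-fold lower. Its partner Col8a1 was at 6.04 and 6.27 in WT cultured stroma and 6.41 and 5.99 in WT fresh stroma, with overlapping arrays. Col14a1 gave 5.15 and 4.59 in WT cultured stroma and 7.67 and 7.53 in WT fresh stroma, and fell 6.66-fold (adjusted p = 1.54e-06). Col15a1 was undetected in culture, at 4.79 and 4.77 in WT cultured stroma against 6.60 and 6.86 in WT fresh stroma, and was at least 3.37-fold lower. Col16a1 (-2.17 ± 0.14), Col23a1 (at least 1.83-fold lower) and Col28a1 (-0.90 ± 0.19, adjusted p = 0.0014) completed the 13 chains that were lower.

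The 4-hydroxylase subunits again differed in direction. P4ha2 gave 8.74 and 8.63 in WT cultured stroma, against 6.58 and 6.99 in WT fresh stroma, and rose 3.74-fold (log2 difference 1.90 ± 0.17, adjusted p = 3.49e-06). P4ha1 gave 7.47 and 7.53 in WT cultured stroma and 8.98 and 8.73 in WT fresh stroma, and fell 2.56-fold (adjusted p = 2.15e-05). Both calls held in all 16 alternatives, and for both genes the direction was opposite to that in LTbR-KO fresh stroma, a comparison that shares the same WT fresh arrays. P4hb gave 11.40 and 11.49 in WT cultured stroma and 11.03 and 11.09 in WT fresh stroma, a rise of 1.31-fold (adjusted p = 0.0354). That call was lost without any 1 of these 4 arrays, with log2 differences from 0.34 to 0.42 when 1 array was left out. Scaling to the 75th percentile gave 1.27 beside 0.39, so the size of the P4hb rise depends on the normalization.

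The lysyl hydroxylases did not move as 1 family. Plod1 gave 7.99 and 8.51 in WT cultured stroma and 7.10 and 6.79 in WT fresh stroma, a 2.48-fold rise (adjusted p = 0.000272). Plod3 gave 11.17 and 10.75 against 10.48 and 10.34 and rose 1.47-fold (adjusted p = 0.0153), a call lost without WT fresh stroma replicate 2 or WT cultured stroma replicate 1. Its log2 difference ranged from 0.32 to 0.76 with 1 array left out. Scaling to the 75th percentile gave 1.35 beside 0.55, so the size of the Plod3 rise also depends on the normalization. Plod2 gave 6.51 and 6.05 in WT cultured stroma and 6.90 and 7.02 in WT fresh stroma and fell 1.60-fold (adjusted p = 0.00495).

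The prolyl 3-hydroxylase family held calls in both directions. P3h4, a family member that works with lysyl hydroxylase, gave 7.42 and 7.85 in WT cultured stroma and 6.47 and 6.34 in WT fresh stroma (2.34-fold higher, adjusted p = 8.72e-05). P3h1, which acts in a complex with Crtap and Ppib, gave 5.93 and 6.06 in WT cultured stroma and 5.70 and 5.46 in WT fresh stroma (1.33-fold higher, adjusted p = 0.0308). The call held in 11 of 16 alternatives. It was lost with no background correction (adjusted p = 0.0559) and with scaling to the 75th percentile (adjusted p = 0.104). It was also lost without WT fresh stroma replicate 2 or either WT cultured array. With 1 array left out, its log2 difference ranged from 0.30 to 0.54. A second P3h1 probe, detected in WT cultured stroma only, was at least 1.75-fold higher there. It passed the detection filter through those arrays alone, so its direction was set by the detection rule. P3h2, the form linked to basement membrane collagen, gave 4.76 on both cultured arrays, undetected, and 7.52 and 7.42 in WT fresh stroma, and was at least 5.602-fold lower. P3h3 was not called (-0.15 ± 0.25) and turned positive (0.08) under scaling to the 75th percentile.

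Serpinh1 gave 11.04 and 11.21 in WT cultured stroma and 11.79 and 11.80 in WT fresh stroma (-0.67 ± 0.14, adjusted p = 0.00132), but scaling to the 75th percentile turned the sign (0.20, adjusted p from 0.000241 to 0.319 over 16 alternatives), so its direction in culture depends on the normalization. Bmp1 gave 8.04 and 7.85 in WT cultured stroma and 8.73 and 8.46 in WT fresh stroma (1.57-fold lower, adjusted p = 0.00703), and was not called under that scaling, without WT fresh stroma replicate 1 or without WT cultured stroma replicate 2 (adjusted p from 0.00417 to 0.121). A second Bmp1 probe was lower as well (-0.68 ± 0.14, adjusted p = 0.00148). The remaining one had a positive difference and was not called (0.34 ± 0.14, adjusted p = 0.0591). Pcolce, at 8.97 and 9.12 in WT cultured stroma and 9.22 and 9.15 in WT fresh stroma, was not called, and its difference of -0.14 became 0.30 under scaling to the 75th percentile. Sparc gave 6.78 and 7.10 in WT cultured stroma and 7.16 and 7.23 in WT fresh stroma (-0.26 ± 0.20).

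**Figure D4:**
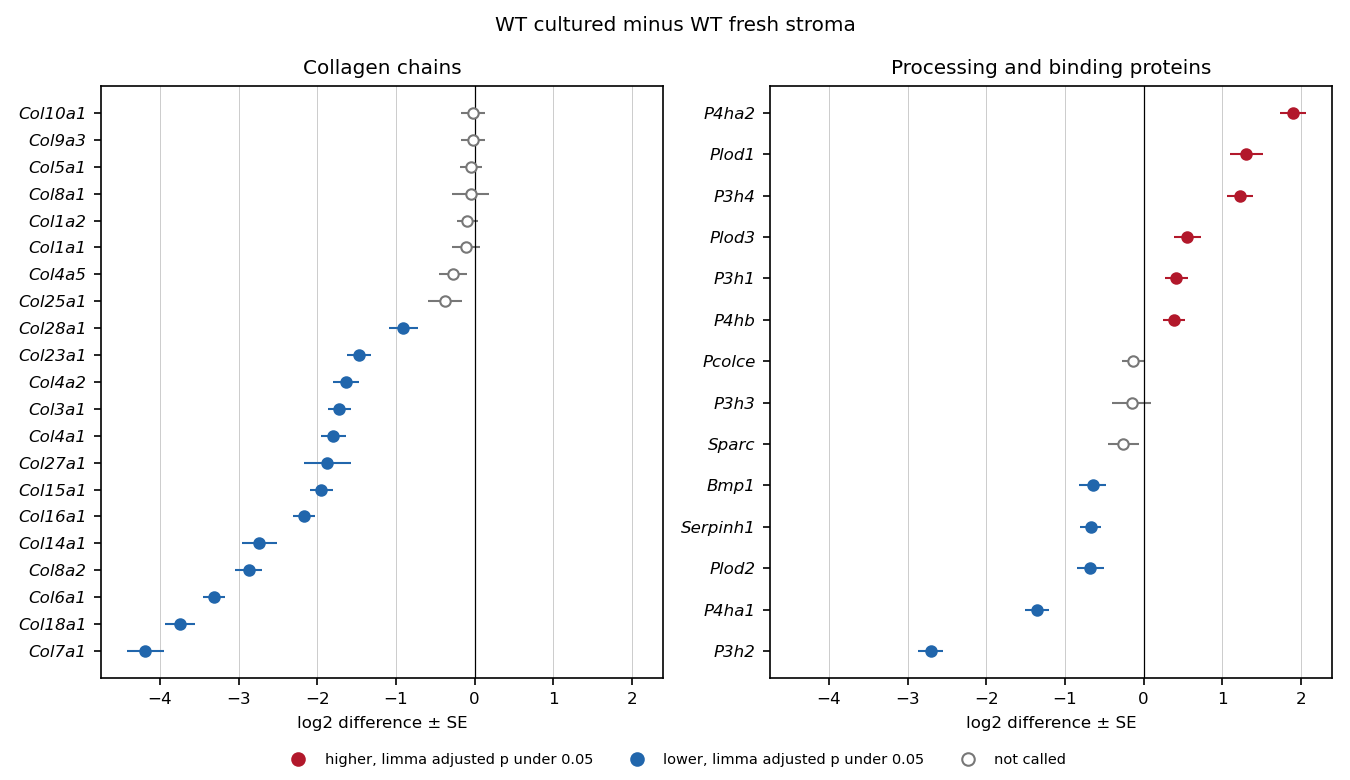
Log2 difference of WT cultured minus WT fresh stroma (x axis, ± SE from limma, 2 arrays per group) for 21 chains (left) and 14 processing or binding proteins (right), ordered by size, with filled symbols at an adjusted p under 0.05. Of the chains 13 were lower and 0 higher, and of the processing proteins 6 were higher and 5 lower; under scaling to the 75th percentile Col1a1, Col5a1, P3h3, Pcolce and Serpinh1 changed sign and Col5a1 was called higher.

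Among the 31 tested genes of the wider list, 15 were higher in WT cultured stroma, 10 lower and 6 not called, with a median of 0.35, beside 33.8% of all tested probes higher and 30.9% lower with a median of -0.02. The share of the list that was lower thus stood near that of all probes. Of the 6 tested chaperones and modifiers, 5 rose: Crtap (1.80 ± 0.16) and Ppib (1.13 ± 0.16), the partners of P3h1, the prolyl isomerases Fkbp14 (1.17 ± 0.16) and Fkbp7 (0.41 ± 0.16), and the endoplasmic reticulum channel Tmem38b (1.43 ± 0.16). The collagen galactosyltransferase Colgalt1 fell (-0.60 ± 0.15). The lysyl oxidases, which cross-link collagen outside the cell, split into Lox (2.18 ± 0.19) and Loxl2 (2.04 ± 0.18), which rose, and Loxl1 (-1.04 ± 0.14), which fell.

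Of 6 tested genes for collagen breakdown and uptake 4 rose, with Mmp13, a collagenase, at 4.28 ± 0.16, Mmp9 at 2.73 ± 0.16, the lysosomal collagenase Ctsk at 1.69 ± 0.17 and the prolidase Pepd at 1.66 ± 0.14. Of 4 tested receptors 3 fell, namely Itga11 (-2.42 ± 0.13), Ddr1 (-1.66 ± 0.19) and Itgb1 (-0.85 ± 0.17). Among the matrix partners Tnxb, which spaces fibrils, fell most, to an undetected level that was at least 47.0-fold lower, followed by Hspg2 (-2.01 ± 0.19), while fibronectin (Fn1) rose (1.90 ± 0.17).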

How the data were processed

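Total RNA was amplified and hybridized to 8 beadchips, and the authors read them with GenomeStudio. Per array, the authors deposited the bead signal of each probe, a linear intensity without normalization, with its detection p-value. A further deposited table holds intensity after cubic spline normalization and background subtraction. No genome build is named in these tables, and no array was left out.

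Signals were background-corrected by normexp with moments inferred from the detection p-values, given an offset of 16 and normalized by quantiles to log2 signals (neqc, limma 3.58.1, R 4.3.3). The test took in probes that both arrays of some group detected at p under 0.05, and was run with lmFit and eBayes over all 8 arrays (4 residual and 6.22 prior degrees of freedom), and p-values were adjusted by Benjamini-Hochberg over 12389 probes. Symbols came from the array annotation, matched by gene ID to RefSeq (20968 of 20984 probes with 1 symbol). The number of arrays, 2 per group, limits the precision. The procedure was tested on simulated data. Figures were drawn with matplotlib 3.10.9 in Python 3.11.15.

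Genes given on every array were the main fibrillar, basement membrane, beaded filament and vessel collagens, the processing and binding proteins outside the P3h family, and for each comparison the 5 largest called rises and falls. Col8a1, P3h1, Col4a5 and Col23a1 were given likewise as partners or exceptions, chosen after their values were seen. The members and gene lists were chosen with earlier results of these data known. Alternatives were an offset of 50, no background correction, scaling to the 75th percentile, the authors' normalized values with a floor of 16, a detection p under 0.01 or no filter, the compared groups alone, replicate number as a block, and leaving out each array. Replicate numbers were not treated as pairs, because no label or method links arrays of different groups.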

Additional observations from a re-analysis of the deposited data

How the results depend on the processing

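In LTbR-KO against WT fresh stroma the number of collagen probes called lower was 14. It was 8 with the authors' normalized values, 8 with no detection filter and 5 with the compared groups fitted alone, and 3 to 12 when 1 array was left out. The number called higher was 2, and it was 0 with the authors' values, 1 with scaling to the 75th percentile, with no filter or with the compared groups alone, and 0 to 1 with 1 array left out. Correlations of replicate differences between groups ran from -0.14 to 0.29, and the highest was that between LTbR-KO fresh stroma and WT fresh stroma. With the replicate block 15 probes were lower and 1 higher in LTbR-KO fresh stroma, 20 lower and 7 higher in WT cultured stroma, and 32 higher in WT fresh stroma than in WT splenocytes. In WT cultured against WT fresh stroma the number called higher was 7, and 4 to 7 with 1 array left out. With replicate numbers crossed as a block, an alternative chosen after seeing the data, 20 were lower and 6 higher. The number of probes detected in WT splenocytes was 14, and 22 when 1 array sufficed.

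Scaling to the 75th percentile turned the sign in culture of Col1a1 (0.40), Col5a1 (0.49), Serpinh1 (0.20) and Pcolce (0.30). With 1 array left out, Col1a1 in culture ranged from -0.35 to 0.14 and Col5a1 from -0.0932 to 0.0083, and in LTbR-KO fresh stroma Col15a1 ranged from -0.11 to 0.15 and Sparc from -0.30 to 0.28. The causes of these changes were not tested. The calls against WT splenocytes kept their direction and side of the threshold for the 20 genes examined under all alternatives. Of these genes, the detection rule left the direction open only for Bmp1, Col4a2, Col5a1, P4ha1, P4hb, Plod1, Plod3 and Serpinh1. For the others the unchanged direction is no support, because the rule had set it. Signals near background limit the dim chains, and 2 arrays per group limit all calls: changes near 1.5-fold lie at the edge of what was called.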

Other observations

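Some collagen genes had several probes that read differently. Of 3 Col6a1 probes, 2 were detected in all 3 kinds of stroma and 1 in no sample type. Of 5 Col25a1 probes, 1 was detected on both arrays of a sample type, WT splenocytes, and it was also detected on 1 array of each kind of fresh stroma. Col3a1, Col7a1, Col9a3 and Col18a1 each had a second probe that was detected on both arrays of no sample type. The 4 probes of Col11a1 were all undetected.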
